A study of Xenopus laevis with 4 samples.

Results

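The maternal Wnt pathway components described here are probe sets, each a group of short probes that reads RNA of a gene. Their single gene symbol on the array is porcn, fzd7, lrp6, dvl2, dvl3, axin1, apc, gsk3b, ctnnb1 or tcf7l1 once the homeolog ending is removed. Matching by symbol gave 20 of 15491 probe sets, which stand for all 10 genes. Xenopus laevis is an allotetraploid frog, and .L and .S mark the homeologous copies of a gene on its long and short subgenomes. Both homeologs were represented for ctnnb1 and tcf7l1, and the .L copy alone for the other 8 genes, so that 12 of the 7531 symbols on the array were covered. RNA from whole, full-grown stage VI oocytes was compared with RNA from vegetal cortices cut by hand from such oocytes, with 2 arrays per group and each replicate from a different female. All oocytes had been isolated with collagenase, no other treatment or genotype was named, and cortices were collected in pools. A cortex is a part of a cell, and the arrays were scaled to a common mean, so the comparison is of shares of RNA, not of amounts per oocyte.

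In the canonical Wnt pathway a secreted, lipid-modified ligand binds a Frizzled receptor and an Lrp co-receptor, Dishevelled proteins are recruited, and the complex of Axin, Apc and Gsk3 that marks beta-catenin for destruction is inhibited. Beta-catenin then enters the nucleus and acts with Tcf/Lef factors. In the frog, RNAs for these proteins are stored in the oocyte, and the pathway acts before zygotic transcription to set up the dorsal side of the embryo, after determinants have moved from the vegetal cortex at fertilization.

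No tested probe set of a core component passed as higher or lower in the vegetal cortex, with 2 arrays per group and wide intervals. The errors, intervals and p-values of this comparison come from a fit without pairing, so they include differences between replicates. With a replicate block no core probe set passed either (adjusted p from 0.245 to 0.97 by limma). Of their 20 probe sets, 12 reached the mean signal of 271.5 required for testing and 8 did not. By limma, 0 of the 12 passed as higher and 0 as lower at an adjusted p under 0.05, and 0 did so in either direction at an unadjusted p under 0.05. Over all 9295 tested probe sets, 3.31% passed as higher and 0% as lower, and 8.02% and 4.62% had an unadjusted p under 0.05 in those directions. The smallest adjusted p among the 12 was 0.533. Their log2 changes, cortex minus whole oocyte, ran from -0.86 to 0.93 with a median of -0.07, beside a median of -0.20 over all tested probe sets. Same-numbered arrays were read as pairs, which is an assumption, since no label ties a number to a female. In these pairs, 5 of the 12 were higher in the cortex both times, 4 were lower both times and 3 went opposite ways. Of all tested probe sets, 20.8%, 47% and 32.3% did so. The 4 lower ones were the 3 of dvl2.L and 1 of ctnnb1.L, whose second pair was nearly level (log2 change -0.0018). Signals of the groups did not overlap for 3 of the 12, 2 higher and 1 lower in the cortex, against 46.5% of all tested, 14.7% higher and 31.8% lower.

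**Figure D1:**
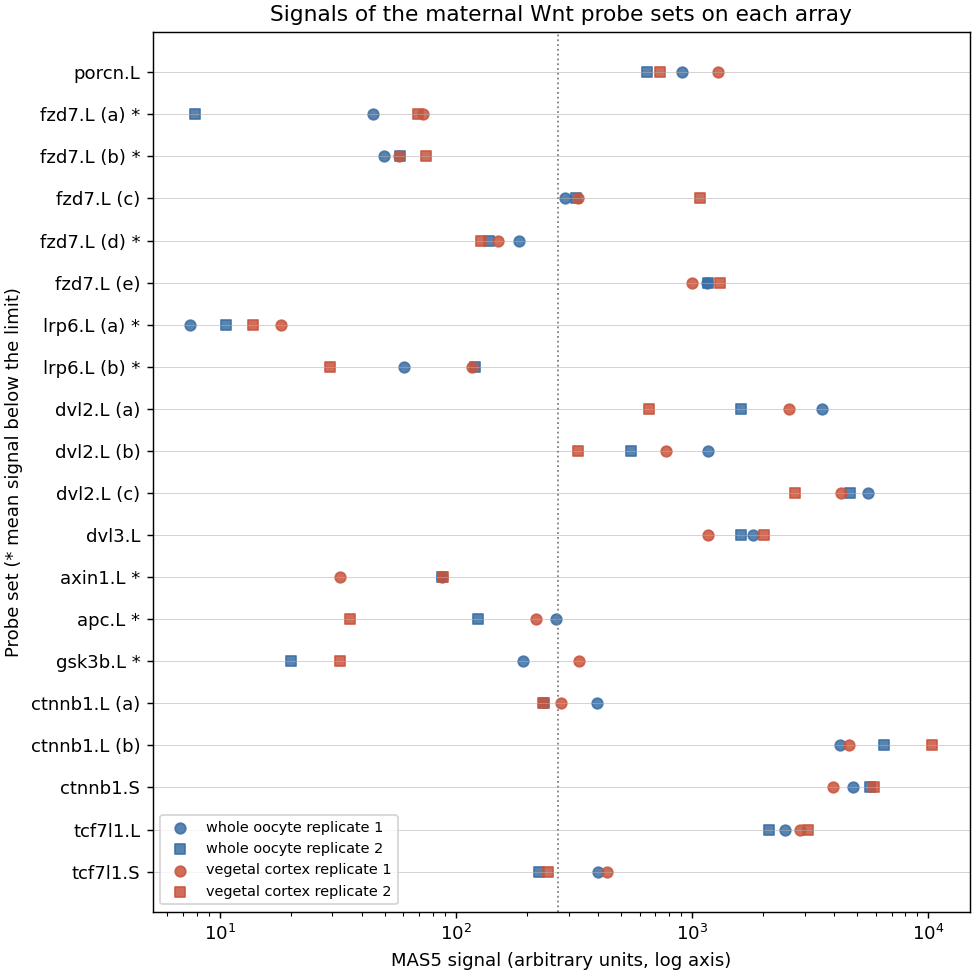
MAS5 signal (log axis) of the 20 probe sets on each of the 4 arrays, in the order of the pathway; letters tell apart probe sets of 1 gene, stars mark mean signals below the limit, and the dotted line is that limit, 271.5. The groups lie among each other for most probe sets. Some separate replicate 1 from replicate 2, among them gsk3b.L, apc.L, dvl2.L (a) and (b), porcn.L, tcf7l1.S and, with replicate 2 higher, ctnnb1.L (b). How often such separation occurs over all probe sets was not counted.

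RNAs known from the vegetal cortex and oocyte genes were looked at first as markers of the labelled material. Their lists were drawn up with earlier results of these data known, so the counts are no independent check. All 10 tested homeologs of vegetal markers were higher in both pairs, beside 20.8% of all tested probe sets. By limma 9 of 10 rose (median log2 change 3.22, wnt11b.L among them). Of all symbols, each judged by its brightest tested probe set, 2.87% were called higher. The tenth, vegt.S, passed in the paired fit with a replicate block and not in the unpaired one (adjusted p = 0.036 and 0.185 by limma). Of 8 homeologs of oocyte markers, among them zona pellucida genes and the kinase gene mos.L, 0 rose or fell by limma. An unadjusted p under 0.05 was found for 1, zp2.L, with a log2 change of 1.48. A list drawn up for follicle and stromal cells held 12 symbols, of which 3 reached the limit. Of these 1 rose, the steroid enzyme gene cyp17a1.L (log2 change 2.13 ± 0.36 SE, adjusted p = 0.0168 by limma). Whether its RNA came from such cells or from the oocyte was not tested. The summed signal of that list was 32669 and 32439 in whole oocytes and 55502 and 52049.6 in cortices. Of this sum cyp17a1.L gave 4187 and 5881 in whole oocytes and 28863 and 16553 in cortices. The other tested genes of the list, fn1.S and vim.L, had log2 changes of 0.15 and 0.05 and did not pass (adjusted p = 0.848 and 0.971 by limma). The part of follicle or stromal cells in the results below was not tested. In such bulk samples a change in the number of cells and a change in RNA per cell cannot be told apart. Of 5 symbols of blood genes 1 was tested, and its log2 change was -0.11.

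Porcupine, encoded by porcn, attaches the lipid that Wnt ligands need for secretion and receptor binding. Its RNA, read by the probe set of porcn.L, measured 910.7 and 642.7 in whole oocytes and 1288 and 728.2 in cortices, in replicates 1 and 2. The cortex was the higher in each pair, and the groups overlapped. The log2 change was 0.33 ± 0.44 SE (95% interval -0.68 to 1.34; adjusted p = 0.767 by limma).

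Frizzled 7 is a maternal Wnt receptor of the frog embryo. It was read by 5 probe sets, called a to e here in the order of their identifiers. Whether these probe sets differ in their change was not tested. Probe set e read 1157 and 1166 in whole oocytes and 998.7 and 1308 in cortices. The cortex arrays lay on either side of the whole oocyte arrays, and the log2 change was -0.02 ± 0.37 SE (95% interval -0.88 to 0.83; adjusted p = 0.983 by limma).

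Probe set c of fzd7.L read 290.9 and 323.4 in whole oocytes, and 330.6 and 1082 in cortices. Both cortex arrays were above both whole oocyte arrays, but only replicate 2 by a wide margin, with log2 changes of 0.17 and 1.68 in the first and second pair. The estimate of 0.93 ± 0.59 SE did not pass (adjusted p = 0.536 by limma). It was 1.76 without vegetal cortex replicate 1 and 0.10 without vegetal cortex replicate 2, where a single cortex array stood for the group. The remaining probe sets a, b and d had mean signals below the limit, between 7.9 and 184.5 on single arrays, and log2 changes of 1.11, 0.22 and -0.18.

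Lrp6 is the co-receptor that works with Frizzled proteins in the canonical branch. Both probe sets of lrp6.L were below the signal limit. One gave 7.5 and 10.7 in whole oocytes and 18.2 and 13.9 in cortices, all under the offset of 19.11 added before taking logarithms. The other gave 60.1 and 120.7 in whole oocytes and 116.6 and 29.3 in cortices, with log2 changes of 0.78 and -1.53 in the first and second pair. No direction can be read from either, and detection calls were not used here, so they are not called absent.

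Dishevelled proteins relay the signal from Frizzled to the destruction complex. All 3 probe sets of dvl2.L were lower in the cortex in both pairs, as were 47% of all tested probe sets, and none passed the test. The 3 read the same gene on the same arrays, so they are not independent. The one without overlap between groups, c, read 5531 and 4682 in whole oocytes and 4280 and 2715 in cortices. Its log2 change was -0.58 ± 0.36 SE (95% interval -1.41 to 0.25; adjusted p = 0.533 by limma).

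Probe set a of dvl2.L read 3550 and 1612 in whole oocytes and 2584 and 658.0 in cortices, with a log2 change of -0.86 ± 0.65 SE (adjusted p = 0.597 by limma). Probe set b read 1169 and 548.9, then 773.7 and 327.6, with a log2 change of -0.65 ± 0.56 SE (adjusted p = 0.638 by limma). In both, replicate 1 was above replicate 2 in each group by more than the groups differed. With the replicate block, a and b did not pass either (adjusted p = 0.245 and 0.312 by limma). The log2 change of probe set a was -1.83 without vegetal cortex replicate 1 and had the opposite sign without vegetal cortex replicate 2 (0.11).

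The related gene dvl3.L read 1813 and 1612 in whole oocytes and 1170 and 2023 in cortices. The pairs went opposite ways, with log2 changes of -0.62 and 0.32, and the estimate was -0.15 ± 0.40 SE (adjusted p = 0.896 by limma). Whether dvl2.L and dvl3.L changed unequally was not tested.

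**Figure D2:**
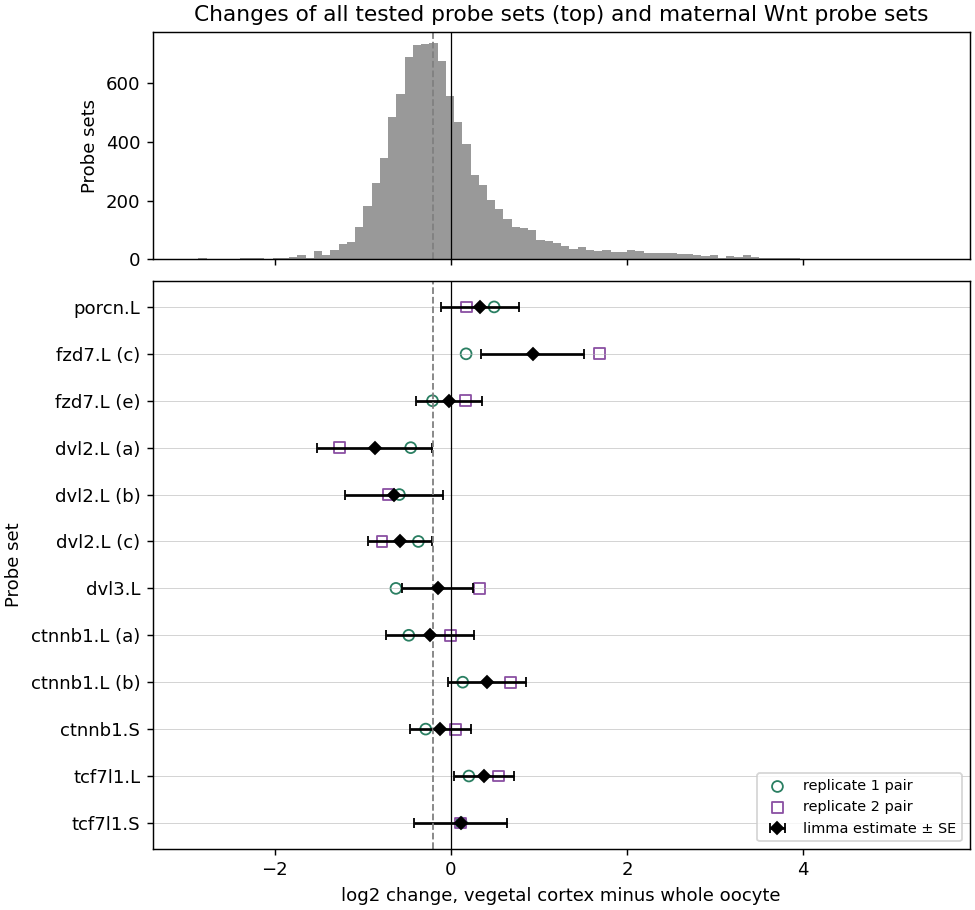
Top, log2 changes of all 9295 tested probe sets; bottom, the 12 tested probe sets of the core components, with diamonds for the limma estimate, bars for its SE and open symbols for each same-numbered pair. The dashed line is the median of all tested probe sets, -0.20; the 12 estimates lie between -0.86 and 0.93, and the 3 of dvl2.L are the lowest.

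The destruction complex could not be tested through its core genes, since axin1.L, the scaffold, apc.L, which binds beta-catenin, and gsk3b.L, the kinase, each had 1 probe set, and all 3 were below the signal limit. For axin1.L the signal was 87.8 on each whole oocyte array, and 32.5 and 88.6 in cortices. That of apc.L was 266.6 and 124.6 in whole oocytes and 218.2 and 35.8 in cortices, lower in the cortex of both pairs (log2 changes of -0.27 and -1.39). That of gsk3b.L was 192.8 and 20.0 in whole oocytes and 331.3 and 32.4 in cortices, higher in the cortex of both pairs (0.73 and 0.40). When dim probe sets were kept, the adjusted p-values of axin1.L, apc.L and gsk3b.L by limma were 0.76, 0.742 and 0.886. No direction is read from these dim signals, and those of gsk3b.L in replicate 2 were near the offset of 19.11.

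Beta-catenin, the product of ctnnb1, is the protein that the complex marks for destruction and that acts in the nucleus. Probe set b of ctnnb1.L read 4214 and 6488 in whole oocytes and 4630 and 10413 in cortices. The cortex was the higher in each pair, and replicate 2 was the higher in each group. The log2 change was 0.41 ± 0.45 SE (95% interval -0.61 to 1.43; adjusted p = 0.713 by limma), and without vegetal cortex replicate 2 it was -0.17.

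Probe set a of ctnnb1.L, just above the limit, read 395.0 and 235.3 in whole oocytes and 278.4 and 235.0 in cortices, with a log2 change of -0.24 ± 0.50 SE (adjusted p = 0.861 by limma). For the other copy, ctnnb1.S, the probe set read 4806 and 5669 in whole oocytes and 3941 and 5872 in cortices. Its groups overlapped, the pairs went opposite ways, and the log2 change was -0.12 ± 0.35 SE (95% interval -0.91 to 0.68; adjusted p = 0.907 by limma). A further probe set that carries the symbols of both ctnnb1 homeologs was left out, because it does not tell the copies apart.

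Tcf7l1, once called XTcf3, is a Tcf factor whose RNA is stored in the frog oocyte, and it represses dorsal genes until beta-catenin arrives. Its copy tcf7l1.L read 2483 and 2113 in whole oocytes and 2866 and 3082 in cortices. Both cortex arrays were above both whole oocyte arrays, by a log2 change of 0.37 ± 0.34 SE (95% interval -0.41 to 1.15; adjusted p = 0.658 by limma). The copy tcf7l1.S read 399.0 and 226.0 in whole oocytes and 434.8 and 245.0 in cortices. There the replicates differed more than the groups, and the log2 change was 0.11 ± 0.53 SE (95% interval -1.10 to 1.33; adjusted p = 0.943 by limma).

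The homeologs were compared by the difference of their changes, .L minus .S, since signals of different probe sets are not comparable. For ctnnb1 the difference was 0.53 ± 0.41 SE (95% interval -0.45 to 1.50; adjusted p = 0.972 by limma over 636 pairs), positive in both pairs of arrays. With the mean of all tested probe sets of a copy in place of the brightest one, it was 0.20. For tcf7l1 it was 0.26 ± 0.46 SE (95% interval -0.83 to 1.35; adjusted p = 0.978 by limma), and its sign turned without whole oocyte replicate 1 (-0.01) or without vegetal cortex replicate 2 (-0.18). Over all 636 homeolog pairs 1.26% passed. Neither gene passed, and the intervals still hold differences of over 1 on the log2 scale in the positive direction, so equal changes of the copies are not shown.

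Both homeologs were tested for 14 Wnt genes in all, and 0 of the 14 passed by limma, with 2 at an unadjusted p under 0.05, where 8.96% of all pairs had one. The widest differences were those of tle5, which encodes a short Groucho-related co-repressor, and of axin2, a relative of axin1. For tle5 the .L copy had a log2 change of 0.65 and the .S copy of -0.52 (difference 1.17 ± 0.43 SE, adjusted p = 0.486 by limma). For axin2 they were -0.57 and 0.58 (difference -1.15 ± 0.46 SE, adjusted p = 0.506 by limma). The groups overlapped for both axin2 copies, and the pairs went opposite ways. Log2 changes in the first and second pair were -1.32 and 0.17 for axin2.L, and -0.52 and 1.68 for axin2.S. No copy passed alone, neither of tle5 (adjusted p = 0.493 and 0.555 by limma) nor of axin2 (0.636 and 0.654).

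**Figure D3:**
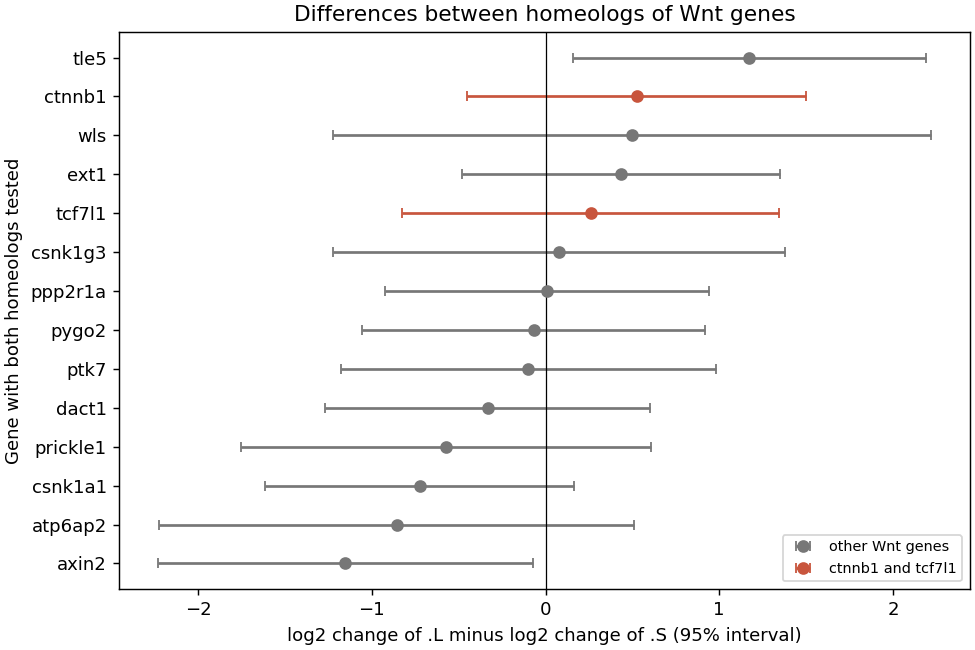
Difference between the log2 changes of the .L and the .S copy for the 14 Wnt genes with both copies tested; points are estimates and bars 95% intervals. The intervals of ctnnb1 and tcf7l1 include 0, and those of tle5 and axin2 do not, although neither passed after adjustment.

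Other genes of the pathway did rise in the vegetal cortex. Lists of ligands and secretion factors, receptors, antagonists, cytoplasmic and nuclear components and the planar polarity branch held 52 further homeologs with a tested probe set, each judged by its brightest one. Of these, 5 rose and 0 fell by limma, which is 9.62% as higher, where the same rule called 2.87% of all 5231 symbols as higher. At an unadjusted p under 0.05, 7 were higher and 0 lower, beside 7.13% and 4.68% of all symbols. The median log2 change of the 52 was -0.06. The lists were drawn up with earlier results known, wnt11b.L is also among the vegetal markers above, and tcf7l2.L reached the signal limit through the cortex arrays, so nothing beyond the counts is read from these shares.

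Of the ligand and secretion homeologs 1 of 6 rose, that of the Wnt ligand gene wnt11b.L, a known vegetal RNA. It read 4995 and 3657 in whole oocytes and 56155 and 26019 in cortices (log2 change 3.16 ± 0.40 SE, adjusted p = 0.00478 by limma). The others lay between gpc4.L, a glypican co-receptor gene, at -0.50 and the Wnt transporter gene wls.L at 0.88. Of 8 receptor homeologs 0 rose or fell, and 0 had an unadjusted p under 0.05, with log2 changes from -0.41 for atp6ap2.L to 0.45 for atp6ap2.S. The 1 tested antagonist gene was znrf3.S, a ubiquitin ligase gene that acts on Frizzled, at 0.22 ± 0.53 SE.

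Of 20 cytoplasmic homeologs 2 rose, csnk1a1.S and btrc.S. The list was drawn up by role in the pathway, so no shared role is read from these calls. Casein kinase 1 alpha, the product of csnk1a1, gives beta-catenin the priming phosphate, and beta-TrCP, the product of btrc, is the ubiquitin ligase subunit that recognizes phosphorylated beta-catenin. The homeolog csnk1a1.S read 2456 and 2532 in whole oocytes and 7642 and 7263 in cortices (2.97-fold with the offset, log2 change 1.57 ± 0.32 SE, adjusted p = 0.0359 by limma). Its homeolog csnk1a1.L read 7474 and 7366, then 15105 and 11820, also without overlap, and did not pass (0.85 ± 0.30 SE, adjusted p = 0.282 by limma). The test of the copies against each other did not pass either (-0.72 ± 0.38 SE, adjusted p = 0.759 by limma).

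The brightest probe set of btrc.S read 3829 and 2308 in whole oocytes and 10999.8 and 13696 in cortices (4.11-fold, log2 change 2.04 ± 0.36 SE, adjusted p = 0.0199 by limma). A further probe set of btrc.S read 1349 and 1142, then 6432 and 5722, and passed as well (2.27 ± 0.34 SE, adjusted p = 0.00954 by limma). Another, at 217.4 and 162.1, then 352.0 and 365.8, was higher in both cortices and did not pass (0.87 ± 0.48 SE, adjusted p = 0.495 by limma). Both whole oocyte signals of this probe set were below the signal limit, and its mean reached that limit through the cortex arrays. The lowest cytoplasmic gene was csnk2a1.S, a catalytic subunit of casein kinase 2, at -1.19 ± 0.92 SE (adjusted p = 0.603 by limma). Its log2 change was -2.61 without vegetal cortex replicate 1 and 0.22 without vegetal cortex replicate 2.

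Of 10 nuclear homeologs 1 passed as higher, tcf7l2.L, which encodes another Tcf factor and was tested because its cortex signals lifted its mean over the limit. Its tested probe set read 128.2 and 122.8 in whole oocytes, and 745.2 and 1217 in cortices (log2 change 2.75 ± 0.47 SE, adjusted p = 0.0175 by limma). Both whole oocyte signals were below the limit of 271.5, and another probe set of this gene was below the limit. Another Tcf gene, tcf7.S, read 2770 and 2439 in whole oocytes and 5573 and 6450 in cortices, without overlap, and did not pass (1.20 ± 0.33 SE, adjusted p = 0.129 by limma). Its log2 change was 1.30 without vegetal cortex replicate 1 and 1.09 without vegetal cortex replicate 2. The lowest nuclear gene was pygo2.L, which encodes a co-activator of beta-catenin, at -0.55. Whether the Tcf genes changed unequally was not tested.

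In the planar polarity branch 1 of 7 homeologs rose, mapk8.L, which encodes the kinase Jnk1. It read 3942 and 5113 in whole oocytes and 19322 and 13575 in cortices (3.60-fold, log2 change 1.85 ± 0.33 SE, adjusted p = 0.0202 by limma). The lowest was rac1.L, a small GTPase gene, at -0.90 ± 0.41 SE (adjusted p = 0.418 by limma). Its log2 change was -1.41 without vegetal cortex replicate 1 and -0.39 without vegetal cortex replicate 2.

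The calls of csnk1a1.S, btrc.S (its brightest probe set), tcf7l2.L and mapk8.L were lost without either whole oocyte array. Such a fit takes its residual spread from the cortex arrays alone, with 1 residual degree of freedom. The loss is therefore not read as particular to these genes. Without whole oocyte replicate 1 their log2 changes were 1.55, 2.40, 2.78 and 1.66, and without whole oocyte replicate 2 they were 1.59, 1.68, 2.72 and 2.03. Without vegetal cortex replicate 1 they were 1.53, 2.20, 3.10 and 1.59, and without vegetal cortex replicate 2 they were 1.61, 1.88, 2.40 and 2.10. Of the 6 called probe sets of these genes, that of wnt11b.L alone passed without either whole oocyte array. Against a 2-fold bound none of these 4 passed, and wnt11b.L did.

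**Figure D4:**
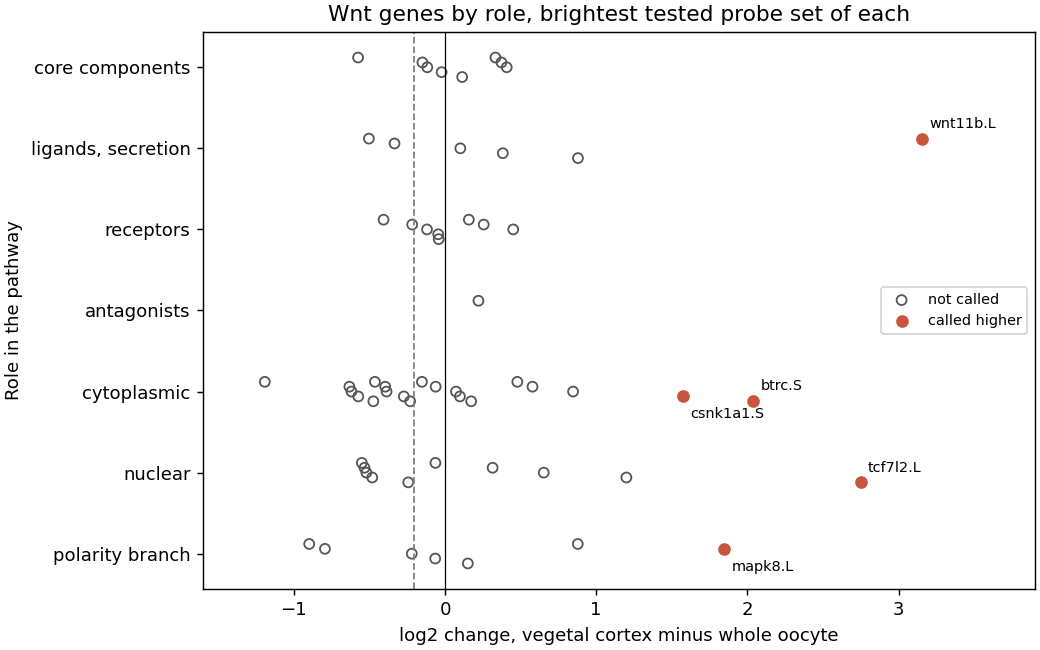
Log2 changes of the core components and of 52 other Wnt homeologs by role, 1 point per homeolog (its brightest tested probe set); filled points passed limma at an adjusted p under 0.05, and the dashed line is the median of all tested probe sets, -0.20. The 8 tested core homeologs stay between -0.58 and 0.41, and the 5 filled points lie from 1.57 for csnk1a1.S to 3.16 for wnt11b.L.

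The replicates were also compared with each other, with ratios taken within each group. A limma contrast of replicate 1 with replicate 2 was fitted over both groups together, so it rests on the assumed pairing of same-numbered arrays. This contrast was looked at after the values had been seen, over all 15491 probe sets with no signal filter, and none passed it (adjusted p under 0.05 by limma for 0 in either direction, against 6.58% as higher in replicate 1 at an unadjusted p under 0.05). Replicate 1 exceeded replicate 2 at least 2-fold in whole oocytes and in cortices for 3 of the 20 core probe sets, of 2 genes, gsk3b.L and dvl2.L (a) and (b), where 1.53% of all probe sets did so. The reverse held for 0 of the 20, against 0.762% of all.

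For gsk3b.L the replicate 2 signals, 20.0 and 32.4, were near the offset of 19.11, so its ratios are uncertain. With the offset, replicate 1 over replicate 2 was 5.41 in whole oocytes and 6.80 in cortices. Over both groups the log2 difference was 2.60 ± 0.49 SE (adjusted p = 0.362 by limma). For dvl2.L (a) the ratios of the deposited signals were 2.20 and 3.93, and for dvl2.L (b) 2.13 and 2.36. For apc.L they were 2.14 and 6.10, on dim signals where the offset brings the first just under 2-fold. In ctnnb1.L (b) the ratios were 0.65 and 0.44, and in tcf7l1.L they were 1.18 and 0.93. Probe set c of dvl2.L had ratios of 1.18 and 1.58, so the probe sets of this gene did not show the difference alike. The replicates came from different females, and no label ties a replicate number to a female, so female and replicate cannot be told apart.

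**Figure D5:**
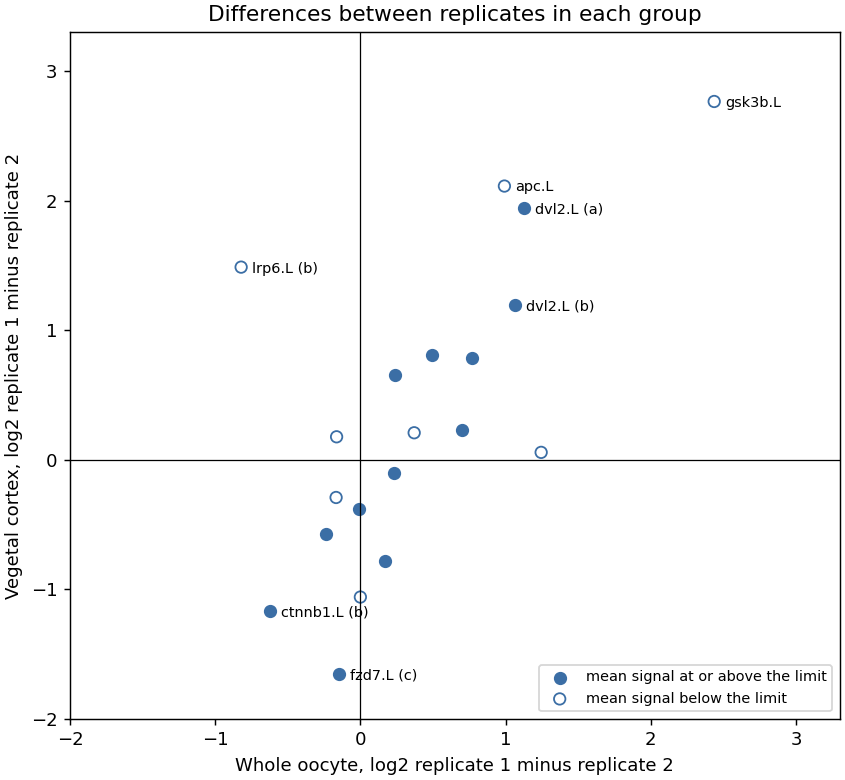
Log2 difference of replicate 1 minus replicate 2 in cortices (vertical) against whole oocytes (horizontal) for the 20 core probe sets, with the offset of 19.11; open points are below the signal limit. The probe set of gsk3b.L lies farthest out on both axes, at 2.44 and 2.77, and fzd7.L (c) lies at -0.14 in whole oocytes and -1.65 in cortices.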

How the data were processed

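Vegetal cortices and whole oocytes were measured on 4 Affymetrix Xenopus arrays, in 2 groups taken from the sample titles (in 1 cortex sample the description and title disagree on the replicate number). The authors deposited a linear intensity for each probe set on each array, computed with MAS5 per the submitters' processing notes, which name no version or setting. The trimmed mean (2% off each end) was 1500.1 or 1500.2 on every array and was kept. The number of arrays limits the precision.

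Of 15611 probe sets, 120 controls were left out. Symbols came from the platform annotation, updated through gene identifiers of the Xenopus_laevis_v10.1 annotation (9227 of 9304 single symbols matched); 195 probe sets with several symbols named no gene. Signals were taken as log2(signal + 19.11), the 10th percentile as offset, which understates changes of dim probe sets. Probe sets with a mean of at least 271.5 (40th percentile) were tested with limma 3.58.1 in R 4.3.3 (lmFit, eBayes with trend, two-sided, Benjamini-Hochberg over 9295). Homeologs were compared by limma on per-array log2 differences, without a trend, with 1 probe set per copy (the brightest). The limma fits of both steps were run on simulated probe sets with independent noise and changes larger than those of the core probe sets. Pairing of copies and choice of the brightest probe set were not simulated. Errors are limma's SE. An exact permutation test of 2 against 2 arrays cannot go below p = 0.333 and was not used.

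Controls came from the same females per the labels' protocols. Same-numbered arrays were therefore read as pairs, which is an assumption, since no label ties a number to a female. Deviations from the group means correlated at 0.35 across probe sets between same-numbered arrays. The main fits had no replicate block, which was run as an alternative, so their errors and intervals include differences between replicates. The members and lists were chosen with earlier results of these data known. Every probe set of the core genes is named, and of other Wnt lists the called genes and those with the lowest and highest change. The homeologs wls.L, csnk1a1.L and tcf7.S and the genes tle5 and axin2 were named after their values were seen. Alternatives covered the offset, filter, normalization, trend, the mean of a copy's probe sets, replicate block, a 2-fold bound and leaving out each array. Sequences are not used here.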

Additional observations from a re-analysis of the deposited data

How the results depend on the processing

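No core probe set passed under any of the alternatives, except fzd7.L (c) as higher and dvl2.L (a) as lower without vegetal cortex replicate 1. Their log2 changes there were 1.76 and -1.83. Leaving out an array leaves 1 residual degree of freedom, and a lone cortex array is assumed to vary like the whole oocyte arrays. Over all probe sets, leaving out 1 array gave from 125 to 697 increases and from 0 to 673 decreases, against 308 and 0; the 2-fold bound gave 81 increases, and quantile normalization 1 decrease. Called homeolog pairs went from 0 to 68 on leaving out 1 array, against 8, and to 4 with no filter on dim probe sets; the tcf7l1 difference then ranged from -0.18 to 0.70 and that of ctnnb1 from 0.23 to 0.82. With the mean of all tested probe sets of a copy the ctnnb1 difference was 0.20 (adjusted p = 0.971 by limma). With the filter at the 60th percentile tcf7l1.S was not tested, so this difference has no value there.

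Of 151 recomputed values of core probe sets, 13 turned sign, on changes that did not pass. With quantile normalization fzd7.L (e) was at 0.10. With arrays centred on the median, which moved the median of all probe sets from -0.20 to -0.07, fzd7.L (e) was at 0.11 and ctnnb1.S at 0.013. The other turns came with leaving out 1 array, where porcn.L ranged from -0.070 to 0.74, fzd7.L (e) from -0.21 to 0.17, dvl2.L (a) from -1.83 to 0.11, dvl3.L from -0.54 to 0.24, ctnnb1.L (a) from -0.59 to 0.11, ctnnb1.L (b) from -0.17 to 0.99, ctnnb1.S from -0.40 to 0.17 and tcf7l1.S from -0.28 to 0.50. Among other genes csnk2a1.S ranged from -2.61 to 0.22, atp6ap2.L from -0.86 to 0.047 and znrf3.S from -0.59 to 1.03. The cause was not tested.

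With the replicate block, 355 increases and 0 decreases were called, no core probe set passed (adjusted p from 0.245 to 0.97 by limma), and wnt11b.L, btrc.S, csnk1a1.S, tcf7l2.L and mapk8.L passed again; among the calls described in the report the block changed that of the vegetal marker vegt.S alone (adjusted p = 0.036). The call of csnk1a1.S was lost with no filter on dim probe sets (adjusted p = 0.0618 by limma) and without the intensity trend (0.0662), as was that of mapk8.L without the trend (0.0533).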
